A study of Mus musculus with 4 samples.

Results

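The 9 genes described here code for secreted proteins that sit in or act on the extracellular matrix, out of 50600 gene rows in an RNA-seq table of mouse embryonic stem (ES) cells. They were chosen by name: the matricellular and matrix glycoprotein genes Spp1, Sparc, Fstl1, Fbln1 and Tgfbi, the protease genes Htra1 and Mmp2, and the protease inhibitor genes Timp1 and Timp2. Htra1 was picked for its lower values in the Myh9 KO cells, so its values are a description and carry no test. The other 8 were grouped by what they code for, with earlier results of these data known, so how many of them moved supports nothing about secreted genes as a class. All libraries came from the ES cell line OG2ES in mES medium plus 2i, a pair of kinase inhibitors that keeps ES cells naive. There were 2 wild-type (WT) libraries and 2 libraries of cells deficient in Myh9 (Myh9 KO), with no further treatment, and the comparison asks how loss of Myh9 changed the transcriptome. The labels used here name 1 KO genotype and do not say how the gene was disrupted, how many clones were used or whether replicates were separate cultures. What is particular to the KO line and what comes of losing Myh9 therefore cannot be told apart, and p-values rest on a spread among 4 libraries that may be only technical.

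Matricellular proteins are secreted into the matrix but, unlike collagens, serve less as scaffold than as binding partners of growth factors, integrins and other matrix proteins. Matrix proteases such as MMP2 and HTRA1 cut these proteins and the scaffold itself, and the TIMP proteins block metalloproteinases. MMP2 is made as an inactive precursor and is activated at the cell surface by the membrane protease MMP14 with TIMP2 as adaptor. Myh9 codes for the myosin IIA heavy chain, part of the motor that pulls on actin where cells grip the matrix.

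The deposited values were whole numbers that summed to between 992098 and 992317 in each library, so they were read as per-million-like values whose decimals had been dropped, and the sequencing depth is unknown. Among 70 ribosomal protein genes, log2 value did not rise with log2 transcript length (slope -0.43), where values not divided by length would rise. The lengths are those of the longest annotated transcript (383 to 5179 bases), which need not be the form expressed. The slope therefore cannot settle whether values are per length. Levels are compared between genes on the assumption, not shown here, that they are. A gene was called changed when limma on log2(value + 1) gave a Benjamini-Hochberg adjusted p under 0.05 over all 11231 genes whose mean was 1 or more, both on the whole numbers and with random decimals. The second fit adds a uniform number between 0 and 1 to every value and takes the median adjusted p over 25 draws, because equal whole numbers leave no spread. Myh9 had values of 83 and 100 in WT 1 and WT 2 and of 9 in each Myh9 KO library (log2 ratio, or log2 fold change, of Myh9 KO to WT -3.20, SE 0.12, n = 2 per group, limma's adjusted p = 0.00675). Of all tested genes 5.81% were called lower and 5.13% higher, and 10.9% either way. The proliferation gene Mki67 and the kinase genes Rock1 and Rock2 had 0 in all 4 libraries, and a 0 in the table is therefore not read as absence.

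Of the 7 genes that could be tested, Spp1, Sparc, Fstl1 and Fbln1 fell and Mmp2 rose, while Timp1 and Timp2 were not called. These are 4 lower and 1 higher of 7, and since the genes were chosen with results of the same contrast known, nothing is read from that share beside the 5.81% and 5.13% of all genes (10.9% in either direction). The same 4 and 1 passed on whole numbers alone, where 7.96% of all genes were lower and 7.17% higher. All 9 members reached the filter on low values, Tgfbi only through its Myh9 KO values, and it is given without a test. Summed over the 9 genes, the WT libraries had 790 and 794 and the Myh9 KO libraries 533 and 524. These are 0.0796% and 0.0800% against 0.0537% and 0.0528% of each library's total. The sum includes Htra1, which was picked for its fall, so its lower value in Myh9 KO is in part a matter of choice. In bulk RNA, fewer cells that express a gene and less of its RNA per cell cannot be told apart, which holds for every value below.

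**Figure D1:**
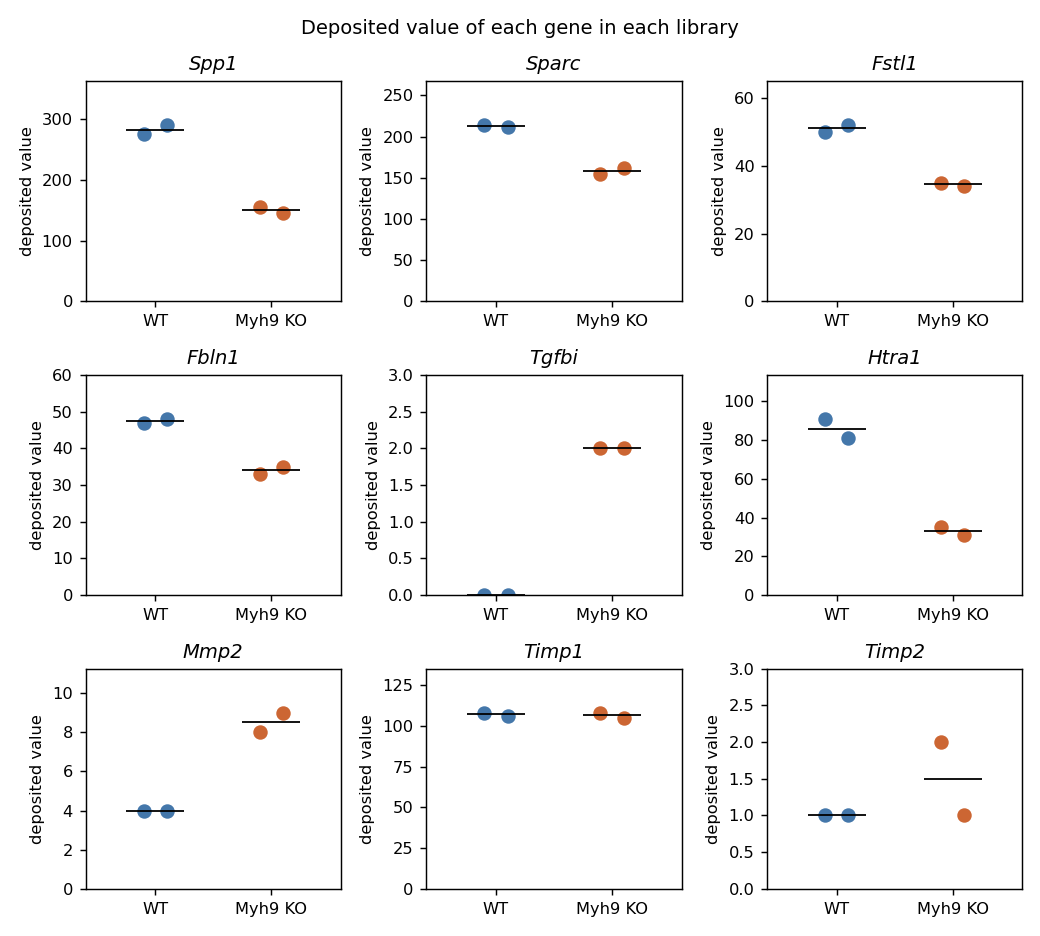
Deposited value (vertical axis, from 0, a different scale in each panel) of each of the 9 genes in the 2 WT libraries (blue) and the 2 Myh9 KO libraries (orange), with the group mean as a line. Groups do not overlap for Spp1, Sparc, Fstl1, Fbln1, Htra1, Mmp2 and Tgfbi, and they overlap for Timp1 and Timp2. Htra1 was picked for its fall, and Tgfbi reached the filter only through its Myh9 KO values. The share of all genes whose groups do not overlap is not given here, so nothing is read from how many members do not.

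Spp1 codes for osteopontin, a phosphoprotein that binds integrins and CD44 (ENSMUSG00000029304, mm10 chromosome 5, 104435118 to 104441050). It had values of 275 in WT 1, 290 in WT 2, 155 in Myh9 KO 1 and 145 in Myh9 KO 2. Both Myh9 KO libraries lay below both WT libraries, by a gap of 120 where libraries of one group differed by at most 15. The mean fell by 46.9%, a log2 ratio of -0.91 (SE 0.05, n = 2 per group, limma's adjusted p = 0.0157, and 3.29e-05 with random decimals). Spp1 transcripts have a GC content of 43.3%, and the 2244 tested genes in its GC class (31.9% to 45.6%) had -0.16 as their median log2 ratio. With the trend on GC content and length removed, the log2 ratio of Spp1 was -0.62 and the larger of its adjusted p-values in limma 0.00148. Leaving out 1 library gave a larger adjusted p of 0.0972 without WT 1, 0.106 without WT 2, 0.0656 without Myh9 KO 1 and 0.0760 without Myh9 KO 2, with log2 ratios from -0.96 to -0.86, and the random-decimal fit alone stayed at or below 0.000726.

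Sparc codes for osteonectin, a collagen-binding glycoprotein abundant in basement membranes (ENSMUSG00000018593, chromosome 11, 55394500 to 55423183). WT 1 and WT 2 had values of 214 and 212, and Myh9 KO 1 and Myh9 KO 2 had 155 and 162. The groups were 50 apart at their nearest, against 7 at most within a group. Its mean fell by 25.6% (log2 ratio -0.42, SE 0.03, n = 2 per group, limma's adjusted p = 0.0200, and 0.000986 with random decimals). The call was lost without WT 1 (larger adjusted p in limma 0.143) and without WT 2 (0.139), and it held without Myh9 KO 1 (0.0334) or Myh9 KO 2 (0.0307). Without limma's trend of variance on level, the random-decimal adjusted p of Sparc was 0.0524.

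Fstl1, which codes for the secreted follistatin-like glycoprotein FSTL1 (ENSMUSG00000022816, chromosome 16, 37776873 to 37836514), stood at 50 and 52 in WT and at 35 and 34 in Myh9 KO. The 15 between the groups exceeded the 2 within WT and the 1 within Myh9 KO. It fell by 0.55 on the log2 scale (SE 0.03, n = 2 per group, limma's adjusted p = 0.0159, and 0.00179 with random decimals). Centring each library on the median log2 value of genes of the same chromosome, which is a level and not a ratio, gave a log2 ratio of -0.46. The larger adjusted p in limma was then 0.0511. In the fit without centring, leaving out 1 library lost the call each time. The log2 ratio was then -0.58 (without WT 1), -0.52 (WT 2), -0.57 (Myh9 KO 1) and -0.53 (Myh9 KO 2).

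Fbln1 codes for fibulin-1, a glycoprotein of elastic fibres and basement membranes that binds fibronectin (ENSMUSG00000006369, chromosome 15, 85205949 to 85286535). WT libraries had values of 47 and 48, Myh9 KO libraries 33 and 35, groups 12 apart with libraries of one group at most 2 apart. It fell by 0.47 on the log2 scale (SE 0.04, n = 2 per group, limma's adjusted p = 0.0272, and 0.00411 with random decimals). Centred likewise on chromosome 15, which also carries Myh9 and whose median log2 ratio was 0, Fbln1 had a log2 ratio of -0.40. Its larger adjusted p in limma was then 0.0607. Without centring, the call of Fbln1 was lost whichever 1 library was left out. Its log2 ratio was -0.49 without WT 1, -0.46 without WT 2, -0.43 without Myh9 KO 1 and -0.51 without Myh9 KO 2.

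Tgfbi codes for a TGF-beta-induced matrix protein that binds collagens and integrins (ENSMUSG00000035493, chromosome 13, 56609603 to 56639339). WT 1 and WT 2 had a listed 0, and each Myh9 KO library had a value of 2. Such values lie at the bottom of the scale, and no fold or test is given.

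Among the proteases, Htra1 codes for a secreted serine protease that cuts matrix proteins (ENSMUSG00000006205, chromosome 7, 130936111 to 130985660). It had values of 91 in WT 1, 81 in WT 2, 35 in Myh9 KO 1 and 31 in Myh9 KO 2. The Myh9 KO libraries were both lower, with 46 between the groups and at most 10 within one. The ratio of the group means was 0.384 and the log2 ratio -1.36, the most negative of the 8 genes with a fold, for which Htra1 was picked. Fgfr2, annotated across the whole of Htra1 on the opposite strand, was listed at 0 in every library.

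Mmp2, the gene of gelatinase A (ENSMUSG00000031740, chromosome 8, 92827291 to 92853420), went the other way. WT libraries had values of 4 and 4 and Myh9 KO libraries 8 and 9, so both Myh9 KO libraries were above both WT libraries. Mmp2 rose by 0.92 on the log2 scale (SE 0.07, n = 2 per group, limma's adjusted p = 0.0222, and 0.00793 with random decimals). At this level the lost decimals matter: if they were cut off, the means as listed allow a ratio between 1.70 and 2.38. The larger adjusted p was 0.151 in limma without WT 1 and also without WT 2, and it was 0.00978 and 0.0260 without Myh9 KO 1 and Myh9 KO 2.

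On chromosome 8, where Mmp2 lies, log2 ratios were centred above 0. Its 646 tested genes had a median log2 ratio of 0.21, and 12.5% of them were called higher and 1.70% lower. The nearest tested gene before Mmp2 was Crnde, 471 kb away (1 and 2, then 1 and 3). Crnde had a log2 ratio of 0.21 and was not called (limma's adjusted p = 0.822). Its values lie at the bottom of the scale, where a whole-number step makes such a ratio, so nothing is read from it about the region. Centring each library on the median log2 value of chromosome 8 genes removes a median level, not the median log2 ratio of 0.21. With it Mmp2 had a log2 ratio of 0.84 (larger adjusted p in limma 0.0374), moved by less than 0.21 from 0.92.

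Timp1, which codes for a secreted inhibitor of most matrix metalloproteinases (ENSMUSG00000001131, chromosome X, 20870166 to 20874735), had nearly the same values in every library. WT had 108 and 106, Myh9 KO had 108 and 105, and the groups overlap. The log2 ratio was -0.01 (SE 0.02, n = 2 per group, limma's adjusted p = 0.895), and the fold's 95% interval ran from 0.940 to 1.05. Timp1 lies within Syn1, a gene on the opposite strand with values of 6, 6, 7 and 6, and the labels' protocols describe no step that keeps strand.

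Timp2, the inhibitor that also helps activate MMP2 (ENSMUSG00000017466, chromosome 11, 118301069 to 118355740), was near the bottom of the scale, with 1 and 1 in WT, then 2 and 1 in Myh9 KO. It was not called (limma's adjusted p = 0.489). Its fold had a 95% interval of 0.660 to 2.27, wide enough to hold the rise measured for Mmp2.

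**Figure D2:**
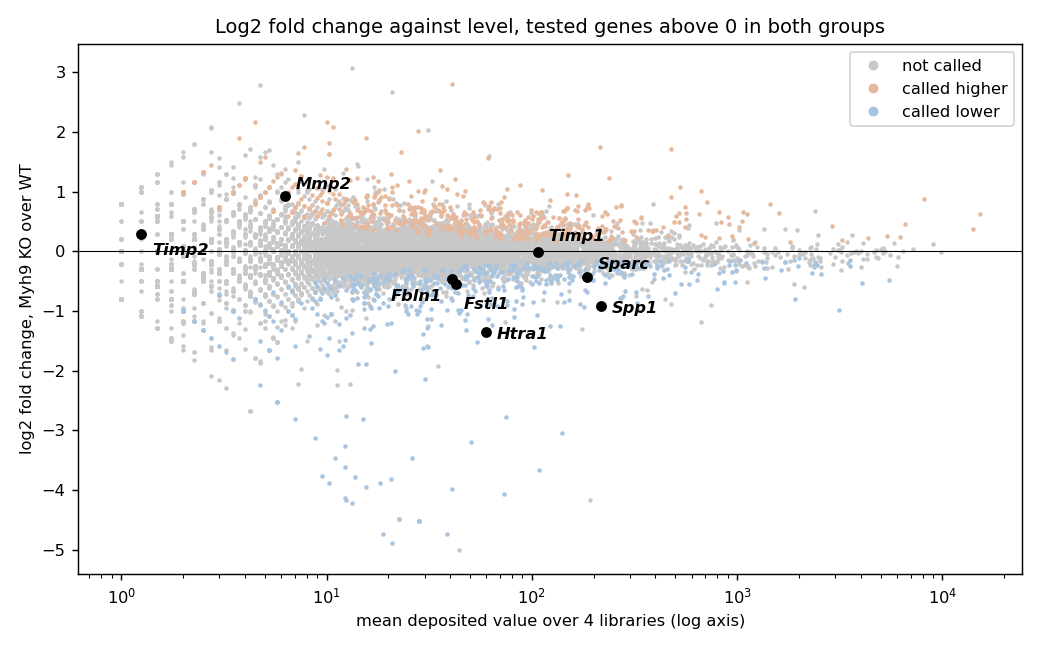
Log2 ratio of Myh9 KO over WT on the log2(value + 1) scale (vertical axis) against the mean value over 4 libraries (log axis) for the 11083 tested genes above 0 in both groups, coloured by call. The 8 genes with a fold are black; Spp1, Sparc, Fstl1, Fbln1 and Htra1 lie below 0, Mmp2 above, Timp1 on the line, and Timp2 at the low end of the level axis.

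In order of level, WT cells listed Spp1 (mean 282.5) above Sparc (213), Timp1 (107), Htra1 (86), Fstl1 (51), Fbln1 (47.5), Mmp2 (4) and Timp2 (1), with Tgfbi at 0. Spp1 and Sparc were among the more abundant transcripts: their WT means ranked 561 and 730 of 12403 genes detected in WT, and together they made up 61.9% and 63.2% of the 9-gene sum. In Myh9 KO the order changed at the top and in the middle. The change in the middle was that of Htra1, which was picked for its fall, so it follows from that choice. Sparc (158.5) and Spp1 (150) met at a value of 155, and Fstl1 (34.5), Fbln1 (34) and Htra1 (33) overlapped, whereas in WT the libraries of Htra1 lay above those of Fstl1 and Fbln1.

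Ratios between genes of the same library do not depend on how libraries are scaled. Spp1 over Sparc was 1.29 and 1.37 in WT but 1.00 and 0.895 in Myh9 KO. Relative to Timp1, Spp1 went from 2.55 and 2.74 to 1.44 and 1.38. Htra1, picked for its fall, went from 0.843 and 0.764 to 0.324 and 0.295 on the same scale. Mmp2 over Timp1 was 0.0370 and 0.0377 in WT against 0.0741 and 0.0857 in Myh9 KO, so Mmp2 values stayed below those of Timp1 in every library. Those of Timp2 (1 and 1 in WT, 2 and 1 in Myh9 KO) were in turn below those of Mmp2. These are RNA values and say nothing of protein amounts. Differences between the genes' fold changes were not tested.

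Neighbouring genes and base composition were set beside each member. A neighbour here is the nearest tested gene on a side, which need not be the adjacent gene. For Spp1 these were Nudt9, 370 kb before it (73 and 69, then 46 and 56), and Pkd2, 18.4 kb after it (7 and 9, then 6 and 4). Their log2 ratios were -0.48 and -0.60. Limma's adjusted p-values were 0.135 and 0.249, and 0.0101 and 0.0970 with random decimals. The neighbours of Sparc were Slc36a1 (-0.13) and Atox1 (0.05), and those of Fstl1 were Ndufb4 (0.13) and Lrrc58 (-0.29) on the log2 ratio scale. For Fbln1 they were Fam118a (-0.18) and Atxn10 (-0.25), with limma's adjusted p-values of 0.224 and 0.0510, and 0.284 and 0.0134 with random decimals. None of the neighbours named here was itself called by both tests, though Nudt9 and Atxn10 passed with random decimals alone. Median log2 ratios of chromosomes 5, 11, 15 and 7 were 0 and that of chromosome 16 was -0.04. The GC classes of Sparc, Fstl1, Fbln1 and Htra1 had medians of 0, -0.06, 0.06 and 0.06. Whether base composition or position played a part in these differences was not tested. The only fits that bear on it removed the GC content and length trend or centred libraries on median levels within chromosomes.

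**Figure D3:**
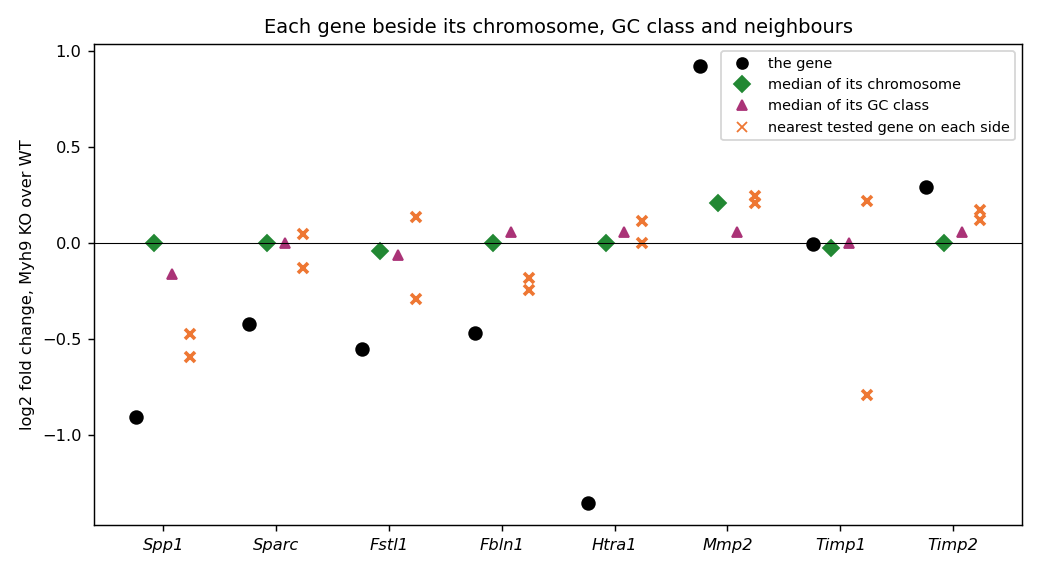
Log2 ratio of Myh9 KO over WT (vertical axis) for each gene with a fold (black), beside the median of tested genes of its chromosome (green), the median of its GC class, which is 1 of 5 equal classes of tested genes (purple), and its nearest tested gene on each side (orange crosses). The green marker for Mmp2 sits at 0.21, and the black marker of each called gene lies farther from 0 than every other marker of its column.

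The sequence just before the transcription start is shown for Spp1 and Fbln1, members that fell, and for Timp1, which was not called, since their windows hold no annotated exon. Each line is the 250 bases before a RefSeq start on GRCm38.p6, plus strand, 5′ to 3′, at chr5:104434861-104435110, chr15:85205699-85205948 and chrX:20869916-20870165, in that order. Capitals mark matches on either strand to 7 motifs: the TATA box spelled TATAAA, the POU factor octamer spelled ATGCAAAT, the GC box spelled GGGCGG, the TEAD factor motif spelled GGAATG, the AP-1 motif spelled TGANTCA, the E-box spelled CACGTG, and the CCAAT box. In these windows no match overlapped another.
Spp1: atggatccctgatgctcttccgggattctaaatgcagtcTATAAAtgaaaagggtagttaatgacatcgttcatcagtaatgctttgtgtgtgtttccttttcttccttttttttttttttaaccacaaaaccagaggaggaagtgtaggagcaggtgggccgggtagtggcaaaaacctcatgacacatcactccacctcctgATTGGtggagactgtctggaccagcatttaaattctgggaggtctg
Fbln1: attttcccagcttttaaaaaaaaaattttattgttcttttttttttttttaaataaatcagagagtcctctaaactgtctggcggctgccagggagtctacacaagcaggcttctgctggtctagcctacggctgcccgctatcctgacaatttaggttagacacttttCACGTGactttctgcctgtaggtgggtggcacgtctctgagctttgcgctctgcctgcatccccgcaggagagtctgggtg
Timp1: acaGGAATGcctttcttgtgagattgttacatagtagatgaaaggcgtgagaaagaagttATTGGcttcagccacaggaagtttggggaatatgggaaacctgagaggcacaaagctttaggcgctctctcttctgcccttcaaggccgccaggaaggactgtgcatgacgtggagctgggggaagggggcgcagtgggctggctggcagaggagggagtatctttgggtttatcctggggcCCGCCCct

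The Spp1 window held TATAAA from 211 to 206 bases before the start and CCAAT on the other strand from 46 to 42, with a GC content of 43.6% and 3 CG dinucleotides. The Fbln1 window held a CACGTG from 81 to 76 bases before the start, with 46.4% GC and 7 CG dinucleotides. Timp1 had GGAATG from 247 to 242, CCAAT on the other strand from 190 to 186 and GGGCGG on the other strand from 8 to 3 bases before the start, with 54.4% GC and 6 CG dinucleotides. Over all 32851 RefSeq windows of that length the median GC content was 52.4% with 6 CG dinucleotides. Of these windows 12.4% held TATAAA, 33.85% CCAAT, 6.02% CACGTG, 12.6% GGAATG, 32.7% GGGCGG, 6.75% TGANTCA and 1.60% ATGCAAAT. RefSeq windows were matched for 8 of the 9 genes, all but Mmp2, and no motif was held by more than 5 of the 8. A match describes these letters and shows no binding.

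Related genes were taken from 10 lists of the matrix and secretory pathway. Of their 168 genes 77 were tested and above 0 in both groups. Of these 11 fell (14.3%, where 5.81% of all tested genes were lower), 5 rose (6.49%, against 5.13%) and 61 were not called, with a median log2 ratio of -0.16 against 0 over all tested genes above 0 in both groups. The lists, like the 9 genes, were drawn up with earlier results known. Among 36 matricellular relatives 24 were listed at 0 throughout and 9 were tested, of which 4 fell and 5 were not called, with a median log2 ratio of -0.68. Those that fell were Ctgf and Cyr61, the CCN family genes (41 and 45 to 21 and 22 with a log2 ratio of -0.97 ± 0.07 SE, and 50 and 53 to 24 and 27 with -0.99 ± 0.08), Smoc1, a relative of Sparc (21 and 22 to 10 and 12, -0.91, SE 0.11), and Fst, the activin-binding follistatin (4 and 4 to 1 and 1). Adjusted p-values from limma were 0.0190, 0.0258, 0.0448 and 0.000935, and with random decimals 0.000254, 0.000212, 0.00164 and 0.00982. Fst, with equal whole numbers in each group, has the smallest p in the first fit and the largest in the second.

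Other proteases and inhibitors showed a mixed picture. Of 22 other metalloproteinase genes 6 were tested and limma called 0, with 0 at an unadjusted p under 0.05 and 0 called with random decimals alone. The most abundant were Mmp11 (21 and 20, then 21 and 26; limma's adjusted p = 0.452) and Mmp14, the surface activator of MMP2 (10 and 11, then 16 and 13; adjusted p = 0.174). Htra2, which codes for a mitochondrial relative of HTRA1, rose from 60 and 65 to 88 and 90 (log2 ratio 0.50, SE 0.05, limma's adjusted p = 0.0363). Htra2 lies on chromosome 6, whose 555 tested genes had a median log2 ratio of 0.45, and centred on those genes its log2 ratio was 0.08 (larger adjusted p in limma 0.539). Of 11 tested ADAM and ADAMTS genes Adam19, a membrane sheddase, fell from 22 and 25 to 8 and 10 (log2 ratio -1.30, SE 0.15, adjusted p = 0.0416) and Adamts8 from 3 and 3 to 1 and 1 (adjusted p = 0.0356 in limma with random decimals), while the other 9 were not called. The inhibitor Reck had values of 1, 2, 1 and 2, and the other 2 genes of that list, Timp3 and Timp4, were listed at 0.

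In the plasminogen and convertase list 7 genes were tested and above 0 in both groups, and 1 of them fell. Pcsk6, a proprotein convertase of the secretory route, fell from 64 and 67 to 49 and 52 (log2 ratio -0.37, SE 0.05, limma's adjusted p = 0.0498). Serpinf1, the gene of the secreted factor PEDF, had values of 4 and 6 in WT and of 0 in each Myh9 KO library, and it is given without a test and left out of the counts.

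Of the receptors that bind osteopontin and other matrix proteins, Itgb5 fell from 65 and 65 to 38 and 43 (log2 ratio -0.67, SE 0.08, limma's adjusted p = 0.0415) and Itga5, the fibronectin receptor subunit, rose from 38 and 40 to 50 and 49 (0.34, SE 0.04, adjusted p = 0.0383). The other 4 of 6 tested were not called, and Cd44 was listed at 0 in every library. Smad7, an inhibitor of TGF-beta signalling, was the 1 gene of 10 tested in that pathway to be called, falling from 35 and 37 to 24 and 26 (-0.51, SE 0.06, adjusted p = 0.0445). Agrn, a basement membrane proteoglycan gene, was the 1 of 9 tested in matrix assembly (111 and 117 to 83 and 88, -0.41, SE 0.05, adjusted p = 0.0449).

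The 17 genes of vesicle secretion were all tested, and their summed values were 1960 and 1959 in WT and 1943 in each Myh9 KO library. Much of that sum is Ssr2, which is not a coat gene (864 in each WT library, 797 and 804 in Myh9 KO, not called). The near-equal sums hide moves in both directions, so they do not show that the genes were level. Among the coat components that carry cargo out of the endoplasmic reticulum, Sec13 (217 and 225 to 294 and 295, log2 ratio 0.41, limma's adjusted p = 0.0155) and Sec24c (44 and 44 to 58 and 57, 0.38, adjusted p = 0.00991) rose. Sec13 also lies on chromosome 6, and centred on its genes had a log2 ratio of -0.02 (larger adjusted p in limma 0.856). Sec23b fell from 112 and 109 to 95 and 93 (-0.23, adjusted p = 0.0359), and 14 were not called. Of the 16 called genes of these 10 lists, 1 was still called by both tests without WT 1 and 1 without WT 2, and 11 and 10 by random decimals alone. Without Myh9 KO 1 or Myh9 KO 2 both tests called 4 and 3, and random decimals 15 and 13. With the replicate number as a block limma called 0 of the 16 by both tests and 16 by random decimals alone. Centred within chromosome, both tests called 10, losing Htra2, Sec13, Sec23b, Smoc1, Itgb5 and Smad7, and 15 kept their direction, all but Sec13. All 16 kept it in the other fits named here.

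**Figure D4:**
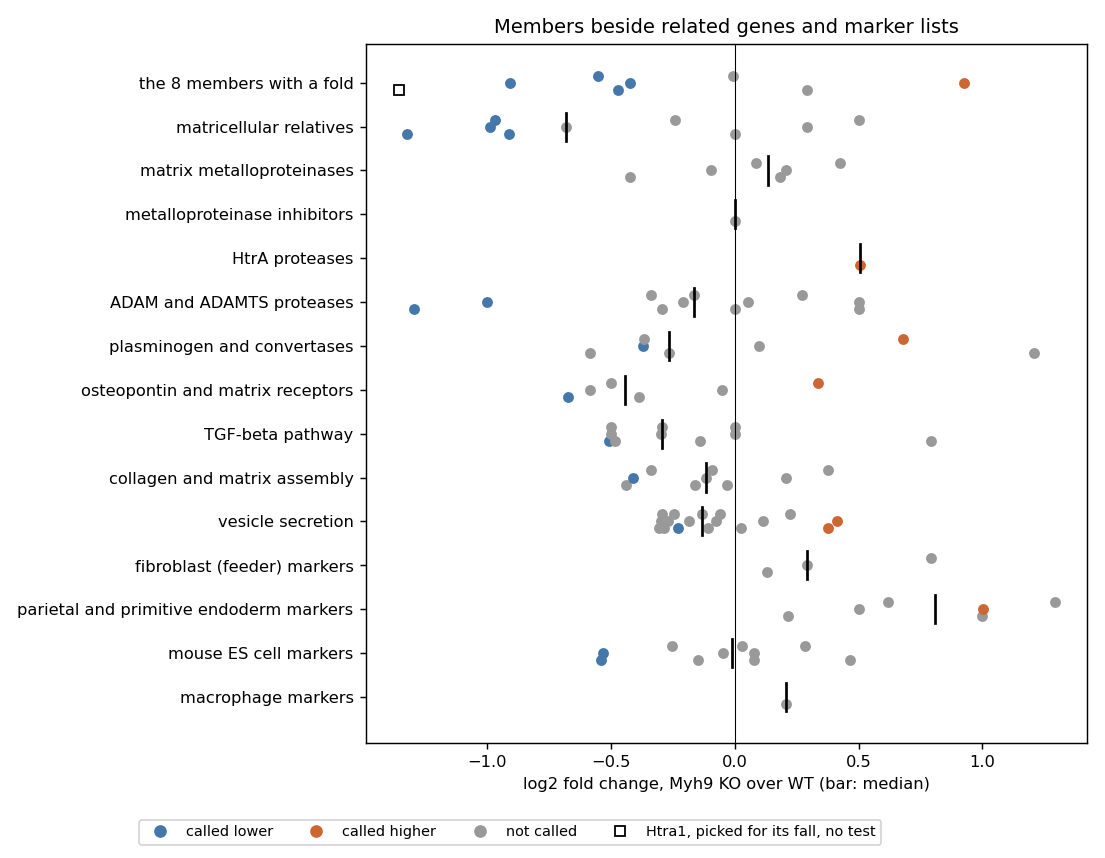
Log2 ratio of Myh9 KO over WT (horizontal axis) for each tested gene above 0 in both groups, in rows by list, with the list median as a bar. Blue points were called lower, orange higher and grey not called; the open square is Htra1. The 4 called matricellular relatives lie between -1.32 and -0.91, and the 6 metalloproteinases are all grey.

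Sparc is also a marker of parietal endoderm and Fstl1 is abundant in fibroblasts, so markers of those cells were set beside them. Of 16 fibroblast markers 12, Col1a1, Col1a2 and Col3a1 among them, were listed at 0 in every library, and the list summed to 8 and 11 in WT against 10 and 12 in Myh9 KO. The 3 tested (Thy1, Col5a1 and Pdgfrb) were not called. Of 17 endoderm markers 9 were listed at 0 throughout, including Gata6 and Sox7, and 6 were tested and above 0 in both groups. The list's sum was 29 and 34 in WT against 59 and 63 in Myh9 KO, with a median log2 ratio of 0.81 over those 6. Col4a1 (12 and 11 to 24 and 24, log2 ratio 1.00, SE 0.05, limma's adjusted p = 0.0134) rose. Gata4 (1 and 2 to 5 and 5), Lamb1 (3 and 4 to 9 and 7) and Col4a2 (5 and 6 to 8 and 10) passed with random decimals alone. Their adjusted p-values in that limma fit were 0.0143, 0.0109 and 0.0437, and Dab2 and Lama1 did not pass. Hnf4a, listed at 0 and 0 in WT and at 2 and 3 in Myh9 KO, is given without a test. The part of endoderm-like cells in the value of any member was not tested. Of 6 macrophage markers, checked because macrophages make osteopontin, only Cd68 was listed above 0 (27 and 29, then 34 and 31), and Ptprc and Adgre1 were at 0. All 10 ES cell markers were tested, and WT summed to 9926 and 10159 where Myh9 KO summed to 8702 and 8539. Without Dppa5a the sums of the other 9 were 5171 and 5318 in WT against 5264 and 5334 in Myh9 KO, and the list's median log2 ratio was -0.01. Sox2 (177 and 183 to 126 and 121) and Dppa5a (4755 and 4841 to 3438 and 3205) fell, and 8 were not called. Of those 8, Zfp42 (140 and 142 to 210 and 181) and Klf4 (51 and 59 to 65 and 69) went up and passed with random decimals alone. Tfcp2l1 (66 and 73 to 59 and 57) went down and passed in the same way. Limma's adjusted p-values with random decimals were 0.00304, 0.046 and 0.044.

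Profiles most like those of Spp1 and Sparc were sought among 4842 genes whose mean value was 20 or more, by the Euclidean distance of log2 values centred on each gene's mean over the 4 libraries. For Spp1 they were Slc4a5 (85, 93, 47 and 46, distance 0.060), Mfsd1 (32, 36, 18 and 17, distance 0.065) and Fbxo15 (92, 105, 54 and 50, distance 0.080). For Sparc they were Cenpw (29, 29, 21 and 22, distance 0.013), Mpc1 (55, 54, 40 and 41, distance 0.023) and Gss (63, 63, 46 and 47, distance 0.026). With 4 libraries this likeness says little more than that the fold changes were alike.

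**Figure D5:**
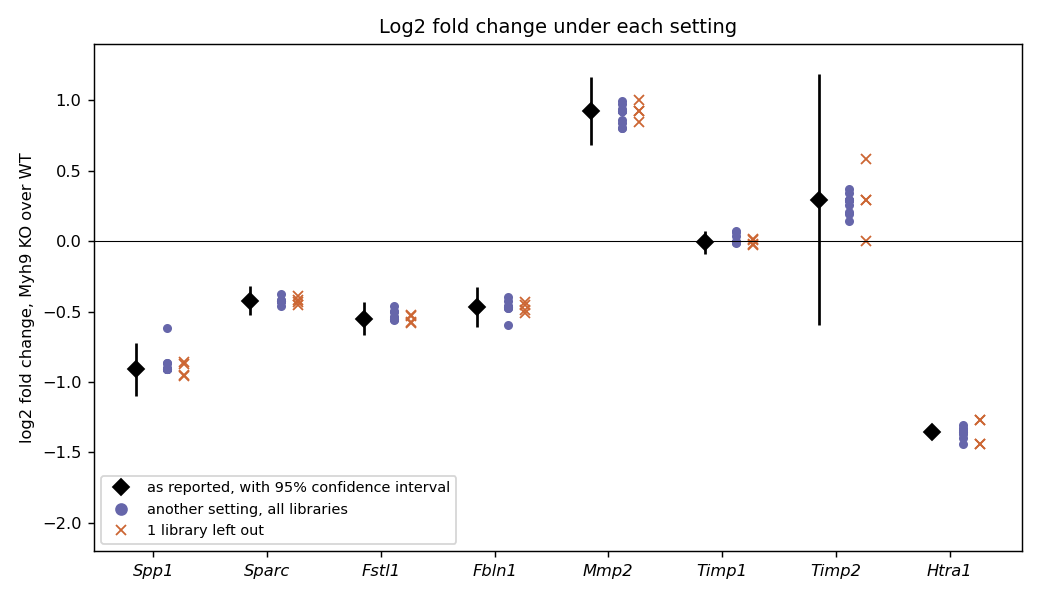
Log2 ratio of Myh9 KO over WT (vertical axis) as reported (diamonds; the bar is the 95% confidence interval, not drawn for Htra1), under each other setting with all libraries (circles) and with 1 library left out (crosses). Spp1 spans -0.96 to -0.62 and Mmp2 0.80 to 1.00, and no called gene reaches 0.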

How the data were processed

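The 4 RNA-seq libraries (oligo-dT enriched mRNA, random-hexamer cDNA, per the labels' protocols) came in 1 deposited table. Its values are a score: whole numbers with nearly equal totals, whose making by the authors is not given in the sources used here. Per the submitters' processing notes, Bowtie2 2.2.5, RSEM 1.3.0, bcl2fastq, mm10 and hg38 were used, in roles not given. Identifiers were matched to GENCODE vM21 (50376 of 50600, 92.9% of them with the same coordinates).

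The whole table was fitted with limma 3.58.1 in R 4.3.3 as described above, without the replicate number as a block, and p-values were adjusted over all genes tested. Same-numbered libraries did not deviate together (r = 0.04). Log2 ratios are of value + 1, so low genes change by more than they show. The members, gene lists and the use of random decimals were chosen with earlier results of these data known. Genes other than the 9 were named by rule: up to 4 called per list, the 2 highest where none was called, neighbours of the called members, and the 3 nearest profiles of Spp1 and Sparc. Of the genes so chosen, 2 are not reported here. Other marker genes were chosen after their values were seen.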

Additional observations from a re-analysis of the deposited data

How the results depend on the processing

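The counts of called members (4 lower, 1 higher) and of all called genes (653 lower, 576 higher) were recomputed under 16 alternatives, 1 of them, whole numbers alone, chosen after seeing the data. Every called member kept its direction in all of them. With the replicate block, which leaves 1 residual degree of freedom, limma called 0 members lower and 0 higher (5 of 7 at an unadjusted p under 0.05, 5 by random decimals alone), and 44 genes were lower and 10 higher. Centred within chromosome, 2 members were lower. Leaving out 1 library gave 0 to 1 members lower and 0 to 1 higher, and 193 to 402 genes lower and 131 to 332 higher. Over all genes, random decimals alone gave 1351 lower and 1248 higher, and removal of the GC content and length trend 1241 and 1310. Centring libraries on their median gave 812 lower and 1120 higher, a shift in the split. Where a count moved, the cause was not tested, except that leaving out a library leaves 1 in its group, assumed to vary like the other group, and that fewer libraries or a block leave fewer degrees of freedom. Pseudocounts, filters, quantile normalization and whole numbers alone left 4 members lower and 1 higher. Without the variance trend 3 members were lower. Depth is unknown, so the precision of low values (Mmp2, Timp2, Tgfbi) cannot be stated beyond their whole-number steps.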
